A study of Mus musculus with 20 samples.

Results

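The enzymes that turn arachidonic acid into prostaglandins and leukotrienes were examined as a set of 10 genes, Pla2g4a, Ptgs1, Ptgs2, Ptges, Hpgds, Alox5, Alox5ap, Lta4h, Ltc4s and Alox15. They were chosen by gene name among the 24421 genes of the count table. All 10 were listed, and all 10 passed the filter on low counts that left 12465 genes for testing. Bulk RNA-seq was made of bone marrow-derived dendritic cells (BMDCs) grown for 8 days with GM-CSF at 40 ng/mL from 5 wild-type C57BL/6 mice, named A to E. Each mouse gave 1 library to each of 4 groups, so that every group had 5 libraries. The DMSO Ova group received DMSO, at 5% by the labels, and ovalbumin (Ova), and the DMSO IC group received DMSO and immune complexes of ovalbumin with IgG (IC). The iBET Ova and iBET IC groups received the BET bromodomain inhibitor I-BET151 (iBET) at 3.3 µM with the same stimuli. Stimulation lasted 4 hours. The labels give no DMSO content for the iBET groups. The methods place iBET 30 minutes ahead of the stimulus, whereas the labels have both added together. The labels describe sorted cells and name no gate, whereas the methods describe lysis in culture.

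Cytosolic phospholipase A2, encoded by Pla2g4a, frees arachidonic acid from membrane phospholipids. The cyclooxygenases Ptgs1 and Ptgs2 make prostaglandin H2, from which terminal synthases such as Ptges and Hpgds form prostaglandins E2 and D2. In the other branch, Alox5 with its partner Alox5ap forms leukotriene A4, which Lta4h turns into leukotriene B4 and Ltc4s into leukotriene C4. Alox15 is a lipoxygenase of eosinophils and some macrophages. In dendritic cells these lipids act on maturation and migration, through receptors on the same or on neighbouring cells. Immune complexes engage Fcγ receptors, and BET proteins are chromatin readers that promote transcription.

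Libraries held between 16447491 and 29245150 counts (median 21764663). Values are given as CPM, the counts per 1000000 of the library size after TMM normalization in edgeR. The dendritic cell markers, 10 of 10 detected in every group, summed to 4553 to 7194 (median 5989) CPM in the DMSO Ova group and 4786 to 7377 (median 6318) CPM in the iBET Ova group, and 4 of them (Flt3, Ciita, Batf3 and Irf4) fell with iBET under each stimulus, while Itgax, Cd74 and the class II genes H2-Aa and H2-Ab1 did not pass. Markers of other cells were present too. The sum of 10 macrophage markers was 1941 to 2635 (median 2190.3) CPM with DMSO and 1442 to 1874 (median 1577) CPM with iBET in the Ova groups, and 5 of these markers passed as lower with iBET and 1 as higher. In the IC groups it was 1995 to 2651 (median 2179) and 1497 to 2192 (median 1761) CPM, with 3 markers lower and 1 higher. Of all genes, 28.9% passed as lower and 27.7% as higher with iBET in Ova, and 29.0% and 27.1% in IC. The neutrophil sum had a median between 19.7 and 23.6 CPM, the erythroid sum lay between 0.999 and 16.0 CPM, and the lymphocyte sum stayed under 1 CPM in every library. Libraries of mice A and B lay apart from those of mice C, D and E on the second principal component, which held 14.9% of the variance, and the labels name no batch. The study's methods mention a correction of batch effects with sva but not which libraries formed a batch. In bulk RNA, fewer cells of a type and less RNA per cell cannot be told apart.

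Per kilobase of exon, in the DMSO Ova group, Alox5ap was the highest of the 10 genes with a mean of 159 CPM per kb (range 127 to 190.3, n = 5). Ptgs1 followed at 65.3 CPM per kb (range 58.4 to 74.0). Next came Lta4h at 18.5 (15.4 to 20.9) and Alox5 at 14.8 (11.8 to 16.8) CPM per kb, with overlapping ranges. Ltc4s at 7.78 (5.62 to 10.7), Pla2g4a at 6.40 (3.82 to 9.53) and Alox15 at 3.59 (1.72 to 5.55) CPM per kb each overlapped with the next. The lowest were 3 genes of the prostaglandin branch. Ptges at 0.728 (0.472 to 1.17) and Ptgs2 at 0.559 (0.370 to 0.791) CPM per kb overlapped, and Hpgds, at 0.175 (0.136 to 0.198) CPM per kb, was below both. The order of Alox5ap, Ptgs1, Lta4h and Alox5 at the top and Hpgds at the bottom was the same in each of the 4 groups. These RNA levels per length rest on the exons of GENCODE M21.

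**Figure D1:**
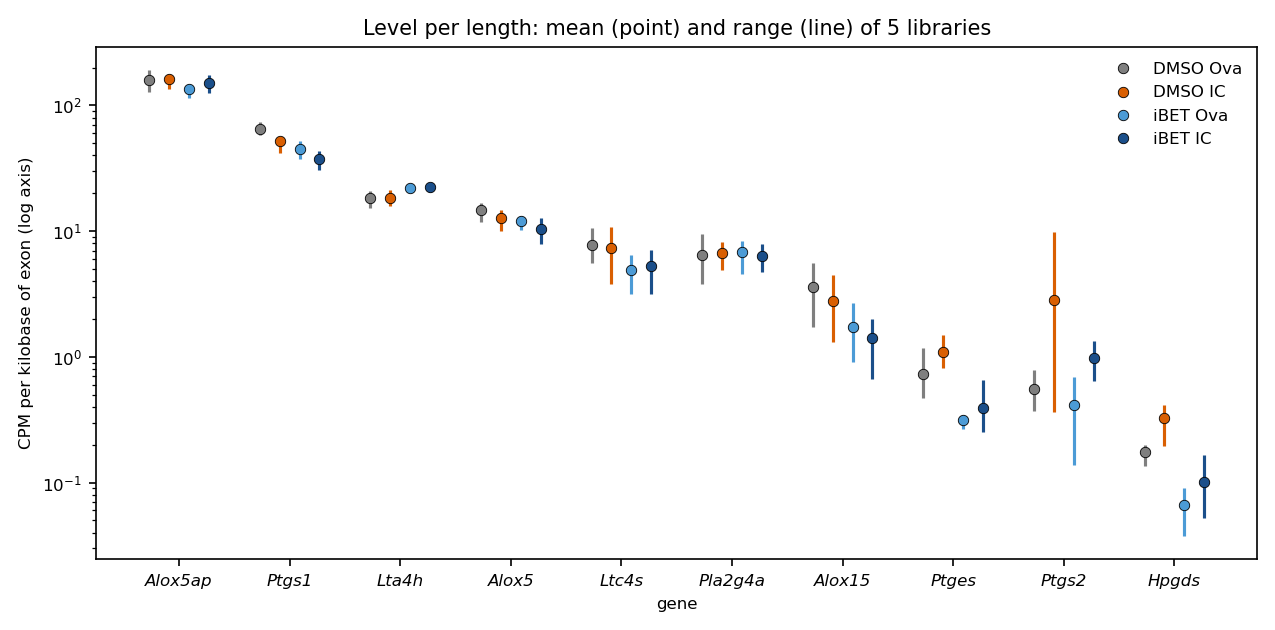
CPM per kilobase of exon (log axis) for the 10 genes, in the order of their DMSO Ova means, with the mean (point) and range (line) of 5 libraries in each of the 4 groups. Levels run from Alox5ap, at 159 CPM per kb with DMSO and Ova, down to Hpgds, at 0.175, and the widest line is that of Ptgs2 in the DMSO IC group, from 0.364 to 9.79.

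Which of these genes differed with iBET, and which with IC, was asked in 4 comparisons that share groups, so that their values for a gene are not independent of each other. A gene is said to pass where the quasi-likelihood test of edgeR gave it an adjusted p under 0.05, with the correction made over all 12465 genes. With iBET against DMSO in Ova, 5 of the 10 genes passed, 1 as higher (Lta4h) and 4 as lower (Ptgs1, Ptges, Hpgds and Alox15). The background was high, as 56.6% of all genes passed in that comparison, 27.7% as higher and 28.9% as lower. The median log2 fold change of the 10 genes was -0.49, against -0.0029 over all genes tested. With iBET against DMSO in IC, 6 of 10 passed, the same 5 genes and Ptgs2 as lower, beside 56.1% of all genes (27.1% higher and 29.0% lower). Their median was -0.47, against -0.0054 over all genes. With IC against Ova in DMSO, 3 of 10 passed, Ptgs2 and Hpgds as higher and Ptgs1 as lower, beside 20.3% of all genes (9.59% higher and 10.7% lower). With IC against Ova in iBET, 0 of 10 passed in edgeR, DESeq2 and limma also passed 0, 2 genes had an unadjusted p under 0.05, and 11.8% of all genes passed (5.19% higher and 6.63% lower). The shares of genes that passed were thus close to the background in the iBET comparisons. With the mouse as a replicate block, 8 members passed with iBET in Ova, 1 higher and 7 lower, beside 68.7% of all genes (33.5% higher and 35.2% lower). In IC the block gave 7 members, adding Alox5 and Ltc4s and losing Ptgs2, beside 68.0% of all genes (32.6% and 35.4%). With IC in DMSO it gave 6 members, 3 in each direction, beside 38.1% of all genes (18.3% and 19.8%), and with IC in iBET 3 members, all lower, beside 28.9% (14.2% and 14.7%).

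**Figure D2:**
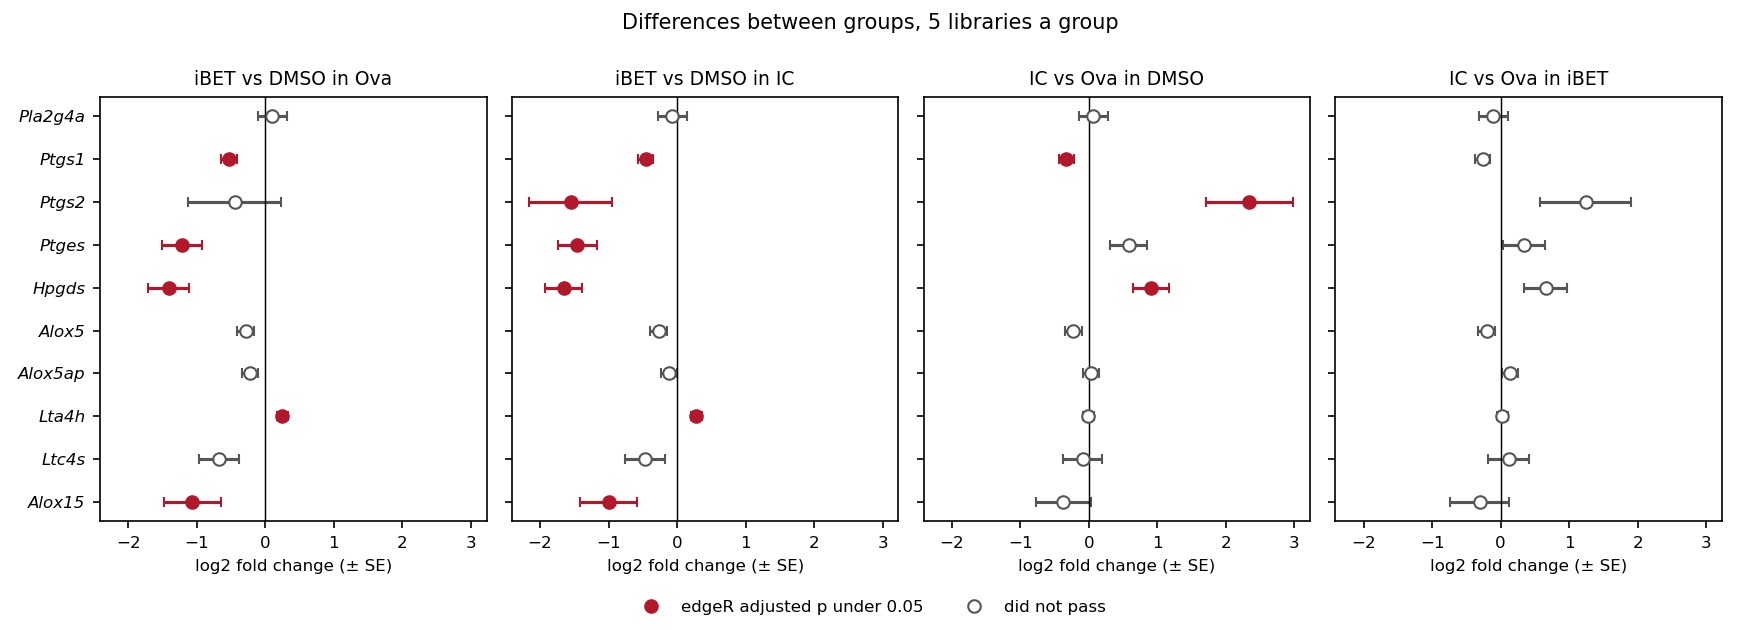
Log2 fold changes (points, with the SE as bars) of the 10 genes in the 4 comparisons, filled red where the edgeR adjusted p was under 0.05. With iBET, Ptges and Hpgds lay between -1.22 and -1.66 under both stimuli and Lta4h lay above 0. Ptgs2 had the largest point with IC in DMSO, 2.34, and the widest bars.

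Pla2g4a, which encodes the phospholipase that starts the pathway, lies on chromosome 1 from 149829618 to 149961290 (GRCm38, as for all positions given), on the minus strand, next to Ptgs2. In mice A to E it had 60.9, 42.8, 37.2, 24.4 and 39.3 CPM with DMSO and Ova and 53.2, 51.5, 46.8, 29.2 and 39.4 CPM with iBET and Ova. With IC it had 52.0, 52.0, 40.6, 31.6 and 38.1 CPM with DMSO and 48.8, 50.4, 40.2, 34.5 and 30.0 CPM with iBET. Mouse A or B was highest and mouse D or E lowest in each group, and the 4 groups overlapped. With iBET the log2 fold change was 0.10 (95% interval -0.34 to 0.55, edgeR adjusted p = 0.697) in Ova and -0.07 (-0.51 to 0.37, adjusted p = 0.802) in IC. With IC it was 0.07 (-0.38 to 0.51, edgeR adjusted p = 0.875) in DMSO and -0.11 (-0.55 to 0.34, adjusted p = 0.807) in iBET. Pla2g4a did not pass in any of the 4 comparisons, and each interval leaves room for a change of over 0.3 on the log2 scale in either direction. With the mouse as a block they were narrower, -0.08 to 0.32 and -0.27 to 0.13 with iBET and -0.11 to 0.29 and -0.30 to 0.10 with IC, and again none passed.

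**Figure D3:**
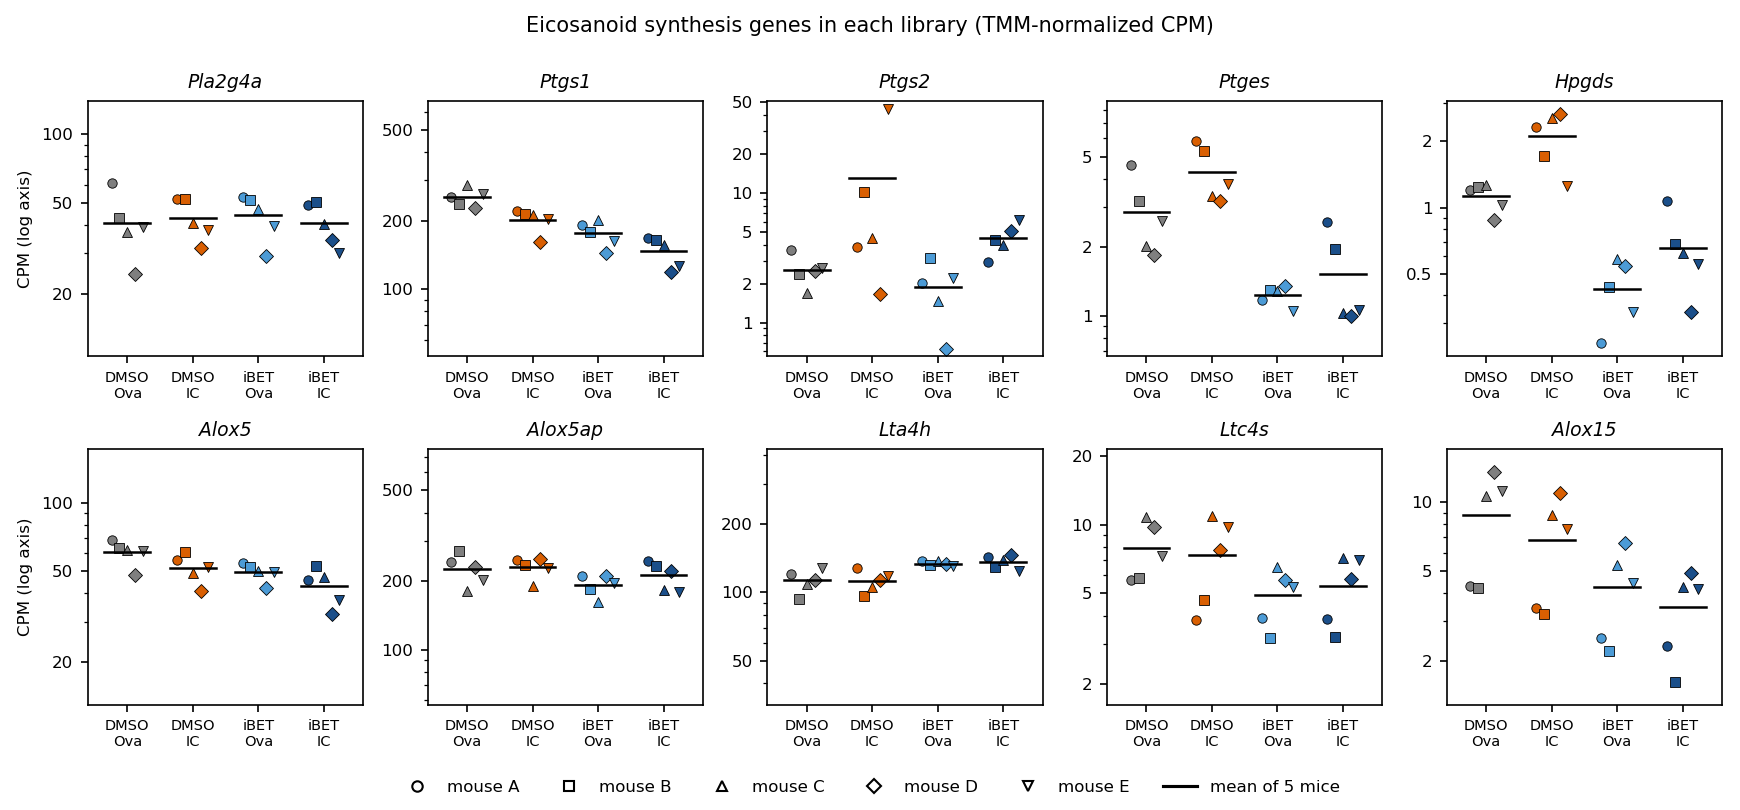
CPM (log axis) of the 10 genes in each of the 20 libraries, with the mouse as the symbol and the mean of 5 mice as a bar. The 5 iBET Ova libraries of Ptgs1, Ptges and Hpgds lie below the 5 DMSO Ova libraries, Lta4h lies above, mice A and B are the lowest for Alox15 in every group, and the library of mouse E stands at 44.8 CPM for Ptgs2 in the DMSO IC group.

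The promoters of Ptgs1, Ptgs2 and Ptges are shown because these genes lie on the route to prostaglandin E2 and differed in level and with treatment. Ptgs1 and Ptgs2 carry the same step, to prostaglandin H2, and Ptges the next. Each run is 250 bases before and 30 after the start site in RefSeq (GRCm38.p6), read in the direction of the gene, with the matches to searched motifs in capitals. The Ptgs1 window is chr2:36230176-36230455 on the plus strand, that of Ptgs2 chr1:150099781-150100060 on the plus strand, and that of Ptges chr2:30903268-30903547 on the minus strand.
Ptgs1 promoter: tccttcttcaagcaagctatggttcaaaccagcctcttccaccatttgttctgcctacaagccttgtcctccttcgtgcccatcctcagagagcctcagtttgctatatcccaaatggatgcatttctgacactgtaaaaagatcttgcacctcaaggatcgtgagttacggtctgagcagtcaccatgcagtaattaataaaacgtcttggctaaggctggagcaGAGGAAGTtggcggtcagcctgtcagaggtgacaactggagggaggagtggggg
Ptgs2 promoter: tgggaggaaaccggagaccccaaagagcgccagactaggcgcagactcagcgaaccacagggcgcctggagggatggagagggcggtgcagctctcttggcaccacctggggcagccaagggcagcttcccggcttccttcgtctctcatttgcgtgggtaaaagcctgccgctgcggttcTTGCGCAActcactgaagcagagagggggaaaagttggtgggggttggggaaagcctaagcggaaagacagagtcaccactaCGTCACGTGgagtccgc
Ptges promoter: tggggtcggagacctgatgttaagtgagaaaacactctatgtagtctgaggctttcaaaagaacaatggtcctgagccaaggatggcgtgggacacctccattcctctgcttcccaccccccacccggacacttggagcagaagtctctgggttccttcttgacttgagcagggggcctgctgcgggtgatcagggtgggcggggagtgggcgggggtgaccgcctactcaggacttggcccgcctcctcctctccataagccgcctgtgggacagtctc
Searched on both strands were CACGTG (E-box), TGACG (the core of a cyclic AMP response element), TTGCNNAA (C/EBP), GAGGAAGT (PU.1), TGANTCA (AP-1), TATAAA (the TATA box) and the NF-kB motif, in the 300 bases from 250 before to 50 after the start. Ptgs2 held TTGCGCAA at -69, and CACGTG at +17 with an overlapping match to TGACG on the minus strand at +14. Ptgs1 held GAGGAAGT at -24, and the Ptges window shown held none of the 7. That window follows a RefSeq start inside the GENCODE model of Ptges, which spans 30889471 to 30929863 on the minus strand. A window at the GENCODE start was not searched. Pla2g4a had more than 1 window, and that from 149922390 held a TATAAA match on the minus strand at -200. Hpgds held GAGGAAGT at -49 and a TTGCNNAA match on the minus strand at -176, but this window lies largely within the first exon of its GENCODE model and is not shown. Of 32851 promoter windows of that length, 7.15% held CACGTG, 20.8% TGACG, 10.8% TTGCNNAA and 3.2% GAGGAAGT, while TGANTCA was in 7.81%, TATAAA in 13.6% and the NF-kB motif in 8.46%. These matches describe letters only. Promoter entries were found for 8 of the 10 genes.

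Ptgs1, the cyclooxygenase made constitutively in many tissues, lies on chromosome 2 from 36230426 to 36252272. In mice A to E it had 254, 237, 287, 227 and 263 CPM in the DMSO Ova group and 191, 179, 201, 145 and 163 CPM in the iBET Ova group. Every iBET library was below every DMSO library, and the log2 fold change was -0.53 (SE 0.111, edgeR adjusted p = 0.00045). With IC the values were 219.8, 213, 211, 162 and 203 CPM with DMSO and 168, 164, 156, 119 and 126 CPM with iBET. Here the groups overlapped, since mouse D with DMSO was below mice A and B with iBET. All the same Ptgs1 was lower with iBET in 5 of 5 mice, by a log2 fold change of -0.46 (SE 0.111, edgeR adjusted p = 0.00162). Both calls were kept in 17 of 17 alternatives. It was also lower with IC in the DMSO groups, which did not overlap, with a log2 fold change of -0.33 (SE 0.111, edgeR adjusted p = 0.0405, lower in 5 of 5 mice). Without mouse A, B, C or E the edgeR adjusted p was 0.0549, 0.0639, 0.141 and 0.117, without the DMSO IC library of mouse E it was 0.0652, and over the alternatives it ranged from 0.000369 to 0.251. In the iBET groups the log2 fold change with IC was -0.26, again below 0 in 5 of 5 mice, and did not pass (edgeR adjusted p = 0.135). It passed with the replicate block (-0.26, edgeR adjusted p = 0.0043). The sum of platelet and megakaryocyte markers, cells rich in Ptgs1, was 161 to 256 (median 186) CPM in the DMSO Ova group, 189 to 264 (median 203) in DMSO IC, 161 to 258 (median 180.4) in iBET Ova and 174 to 245 (median 183) in iBET IC. These ranges overlapped, and 0 of the 4 markers tested passed with iBET in Ova, beside 56.6% of all genes. In IC 1 marker passed as lower, beside 29.0% of all genes. Of the exon bases of Ptgs1, 148 are shared with a transcript on the other strand (Gm43621), and the strand setting of the counting is not given in the sources used here.

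Ptgs2, the cyclooxygenase that inflammatory stimuli induce, lies on chromosome 1 from 150100031 to 150108227 and is the member whose IC values differed most between mice. With DMSO it had 3.62, 2.37, 1.70, 2.49 and 2.62 CPM in mice A to E with Ova and 3.82, 10.2, 4.53, 1.67 and 44.8 CPM with IC. Mouse E, at 44.8 CPM (1104 reads), stood far above the other 4 libraries, which ran from 1.67 to 10.2 CPM, and mouse D was below its own Ova library. The log2 fold change with IC was 2.34 (SE 0.633, edgeR adjusted p = 0.0132, higher in 4 of 5 mice), and the groups overlapped. Without the library of mouse E it was 0.97 and did not pass (edgeR adjusted p = 0.111), nor did it with the replicate block as well (0.88, edgeR adjusted p = 0.0593). Over the 17 alternatives the adjusted p ranged from 0.00257 to 0.179, and 6 of them lost the call. That library was far from its group in 0.955% of the genes tested, within the range of 0.441% to 3.09% over all libraries. With iBET the Ptgs2 values were 2.02, 3.14, 1.46, 0.630 and 2.22 CPM with Ova and 2.92, 4.32, 3.93, 5.10 and 6.17 CPM with IC. They were higher with IC in 5 of 5 mice, with a log2 fold change of 1.24 (95% interval -0.15 to 2.63) that did not pass (edgeR adjusted p = 0.248). Leaving out the same DMSO IC library, which shares in the estimate of spread, gave an edgeR adjusted p of 0.0536 for it, and 0.0106 with the block. With iBET against DMSO, Ptgs2 was lower in 4 of 5 mice in Ova, with a log2 fold change of -0.45 (edgeR adjusted p = 0.598), and fell by 1.55 on the log2 scale in IC (SE 0.606, edgeR adjusted p = 0.0357, lower in 4 of 5 mice). The latter also rested on mouse E: without its DMSO IC library the value was -0.17 (edgeR adjusted p = 0.738). With the replicate block and all libraries it was -1.05 (edgeR adjusted p = 0.0572), and 12 of the 17 alternatives lost the call. Among them were the fits without mouse A, B or C, in which mouse E remains (edgeR adjusted p = 0.0505, 0.0841 and 0.0576).

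Set against Ptgs1, there were 1.43, 0.999, 0.590, 1.10 and 0.996 Ptgs2 reads for each 100 Ptgs1 reads in mice A to E with DMSO and Ova, and 1.74, 4.78, 2.15, 1.03 and 22.1 with DMSO and IC. With iBET there were 1.06, 1.76, 0.724, 0.436 and 1.36 with Ova and 1.74, 2.64, 2.52, 4.30 and 4.88 with IC. Within iBET every mouse had more Ptgs2 per Ptgs1 read with IC than with Ova, and with DMSO this held for 4 of 5 mice. Ptgs1 reads outnumbered Ptgs2 reads in all 20 libraries.

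The terminal synthases Ptges and Hpgds were lower with iBET under both stimuli, with no overlap between the groups. Ptges, the microsomal prostaglandin E synthase on chromosome 2 from 30889471 to 30929863, had 4.61, 3.20, 2.02, 1.86 and 2.62 CPM with DMSO and Ova and 1.17, 1.30, 1.28, 1.35 and 1.05 CPM with iBET and Ova. This was a log2 fold change of -1.22 (SE 0.295, edgeR adjusted p = 0.00154, lower in 5 of 5 mice). In the IC groups it had 5.83, 5.31, 3.36, 3.21 and 3.78 CPM with DMSO and 2.59, 1.97, 1.03, 1.00 and 1.06 CPM with iBET, a log2 fold change of -1.46 (SE 0.284, edgeR adjusted p = 0.000207, lower in 5 of 5 mice). Mice A and B were the highest of each group but iBET Ova, where the 5 mice lay between 1.05 and 1.35 CPM. With IC in DMSO the log2 fold change of Ptges was 0.58, above 0 in 5 of 5 mice, and did not pass (edgeR adjusted p = 0.141), but passed without mouse A (adjusted p = 0.0464). It also passed with the replicate block (0.60, edgeR adjusted p = 0.0043). With IC in iBET it was 0.34 (edgeR adjusted p = 0.531), and it was 0.90 in mice A and B and -0.25 in mice C, D and E.

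Hpgds, the hematopoietic prostaglandin D synthase on chromosome 6 from 65117293 to 65144908, was the lowest member, with 20 to 64 reads a library in the DMSO groups and 6 to 29 in the iBET groups. It had 1.21, 1.24, 1.27, 0.876 and 1.03 CPM with DMSO and Ova and 0.242, 0.434, 0.583, 0.540 and 0.335 CPM with iBET and Ova, which is a log2 fold change of -1.41 (SE 0.300, edgeR adjusted p = 0.00051). With IC it had 2.33, 1.72, 2.57, 2.66 and 1.26 CPM with DMSO and 1.07, 0.682, 0.621, 0.334 and 0.556 CPM with iBET, a log2 fold change of -1.66 (SE 0.272, edgeR adjusted p = 3.35e-05). Each difference was seen in 5 of 5 mice and each call was kept in 17 of 17 alternatives, as were those of Ptges. Hpgds rose with IC in the DMSO groups by 0.91 on the log2 scale (SE 0.259, edgeR adjusted p = 0.0182, higher in 5 of 5 mice), though mouse E with IC, at 1.26 CPM, was below mouse C with Ova, at 1.27 CPM. That call was lost in 3 of 17 alternatives (edgeR adjusted p 0.00274 to 0.29), among them the fits without mouse C (0.0998) and without mouse D (0.11). In iBET the change with IC was 0.66 (95% interval 0.0024 to 1.31, edgeR adjusted p = 0.186). Centred within each mouse, log2 CPM of Ptges and Hpgds had the highest correlation of any pair of members over the 20 libraries (r = 0.95). The 20 points share the groups, so no p is given.

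Basophils and mast cells are known sources of Hpgds and Ltc4s, and the basophil markers moved with iBET. The sum of the 9 basophil markers was 14.1 to 26.7 (median 20.0) CPM with DMSO and 7.68 to 11.5 (median 8.92) CPM with iBET in the Ova groups, and 17.3 to 26.9 (median 20.3) and 9.33 to 17.1 (median 11.9) CPM in the IC groups. Of the 5 basophil markers tested, 3 were lower with iBET in Ova and 4 in IC, and 0 were higher. Of all genes, 28.9% were lower in Ova and 29.0% in IC, and 27.7% and 27.1% were higher. Among the lower markers were Cd200r3 (7.29 ± 1.70 to 1.70 ± 0.375 CPM, SD, n = 5, in Ova) and Gata2 (6.96 ± 2.97 to 2.97 ± 0.961 CPM). With IC in DMSO, where Hpgds rose, 1 basophil marker passed, Hdc, as higher (0.84, edgeR adjusted p = 0.00419). In that comparison 9.59% of all genes passed as higher. Cpa3 had means of 1.55 CPM with DMSO and 1.09 with iBET in Ova, and 1.65 and 1.84 CPM in IC. The basophil protease genes Mcpt8 and Prss34 had at most 6 and 15 reads in a library and were not tested. Prss34 had 0.276 and 0.273 CPM in Ova and 0.294 and 0.315 CPM in IC. Mcpt8 had 0.0762 and 0.0907 CPM in Ova and 0.0703 and 0.0608 CPM in IC. The IgE receptor gene Fcer1a had no read in the iBET groups, but at most 2 reads in a DMSO Ova library and 7 in a DMSO IC library. The mast cell sum of 10 markers, which share Gata2, Hdc, Cpa3, Ms4a2 and Fcer1a with the basophil list, was 17.6 to 49.2 (median 39.2) CPM with DMSO and 13.3 to 36.8 (median 32.1) CPM with iBET in Ova, and 25.6 to 45.7 (median 36.8) and 13.6 to 41.4 (median 31.6) CPM in IC. The mast cell proteases Tpsab1 and Mcpt4 had no read in any library. The part of these markers in the Hpgds and Ltc4s values was not tested.

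In the leukotriene branch, Lta4h passed with iBET under both stimuli and Alox5 and Alox5ap under neither. Alox5, which encodes the lipoxygenase that starts leukotriene synthesis (chromosome 6 from 116410077 to 116461178), had 68.8, 63.0, 61.7, 48.3 and 61.1 CPM with DMSO and Ova and 54.5, 51.9, 50.1, 42.2 and 49.5 CPM with iBET and Ova. The groups overlapped, and the log2 fold change was -0.29 (SE 0.125, edgeR adjusted p = 0.0562, and 0.0124 without mouse D). With IC it had 56.0, 60.9, 48.9, 41.0 and 52.1 CPM with DMSO and 45.8, 52.6, 47.0, 32.5 and 37.2 CPM with iBET, a log2 fold change of -0.27 (edgeR adjusted p = 0.0776). Both were below 0 in 5 of 5 mice and passed with the replicate block (-0.28, edgeR adjusted p = 0.000482, and -0.27, adjusted p = 0.000795). IC against Ova gave -0.23 in DMSO and -0.20 in iBET, and neither passed (edgeR adjusted p = 0.218 and 0.327). Both passed with the block (edgeR adjusted p = 0.00667 and 0.014).

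Alox5ap, whose protein presents arachidonic acid to Alox5, lies on chromosome 5 from 149264767 to 149288153. Its mean was 226 ± 34.6 CPM in DMSO Ova and 193 ± 20.5 CPM in iBET Ova, and 231 ± 24.2 and 212 ± 29.9 CPM in IC (SD, n = 5 each). All 4 groups overlapped, between 162 and 270.2 CPM. The log2 fold change with iBET was -0.23 in Ova (95% interval -0.46 to 0.01, edgeR adjusted p = 0.0982) and -0.12 in IC (-0.36 to 0.12, adjusted p = 0.388). Only the Ova value passed with the replicate block (-0.22, edgeR adjusted p = 0.00511), and the difference between the 2 values did not pass (interaction 0.11, edgeR adjusted p = 0.9999). With iBET in Ova, mice A and B gave -0.37 and mice C, D and E -0.07. IC against Ova gave 0.03 in DMSO and 0.14 in iBET, neither of which passed (edgeR adjusted p = 0.889 and 0.492). An antisense gene, Gm19719, shares 189 exon bases with Alox5ap.

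Lta4h, the hydrolase that makes leukotriene B4 (chromosome 10 from 93453411 to 93484875), was the only one of the 10 genes that passed as higher with iBET. It had 120.3, 93.8, 109, 114 and 128 CPM with DMSO and Ova and 138, 131, 137, 133 and 130.4 CPM with iBET and Ova. All iBET values were above all DMSO values, with a log2 fold change of 0.25 (SE 0.0799, edgeR adjusted p = 0.013, higher in 5 of 5 mice). With IC it had 129, 96.4, 106, 113 and 118 CPM with DMSO and 143, 129, 139, 146 and 124 CPM with iBET, where mouse A with DMSO was above mouse E with iBET. This was a log2 fold change of 0.28 (SE 0.0799, edgeR adjusted p = 0.00568, higher in 5 of 5 mice). The Ova call was lost when libraries were scaled by library size alone (0.19, edgeR adjusted p = 0.0552) or mouse C was left out (adjusted p = 0.0665). In mice A and B only, the call was lost in both Ova and IC (edgeR adjusted p = 0.118 and 0.154). Over the 17 alternatives the adjusted p ranged from 0.00158 to 0.118 in Ova, where 3 lost the call, and from 0.000555 to 0.154 in IC, where 1 did. IC against Ova gave -0.01 (95% interval -0.17 to 0.16) in DMSO and 0.03 (-0.14 to 0.19) in iBET, the narrowest intervals among the 10 genes.

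Ltc4s, the leukotriene C4 synthase (chromosome 11 from 50236461 to 50238616), and Alox15 (chromosome 11 from 70344152 to 70352031) were lower in mice A and B than in the other mice. Ltc4s had 5.70, 5.87, 10.8, 9.77 and 7.28 CPM with DMSO and Ova and 3.92, 3.20, 6.53, 5.72 and 5.36 CPM with iBET and Ova. With IC it had 3.82, 4.67, 11.0, 7.79 and 9.79 CPM with DMSO and 3.85, 3.22, 7.14, 5.77 and 7.01 CPM with iBET. Mice A and B were below mice C, D and E in each of the 4 groups. With iBET it was below DMSO in 5 of 5 mice in Ova, with a log2 fold change of -0.68 (SE 0.295, edgeR adjusted p = 0.0565), and in 4 of 5 mice in IC (-0.47, SE 0.294, edgeR adjusted p = 0.18), and neither passed. Both passed with the replicate block, which takes out the level of each mouse (-0.68, edgeR adjusted p = 6.5e-05, and -0.44, adjusted p = 0.0029). IC against Ova gave -0.09 in DMSO and 0.12 in iBET (edgeR adjusted p = 0.874 and 0.857). Of the exon bases of Ltc4s, 268 are shared with the antisense gene Gm26542, the largest such overlap among the members.

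Alox15 had 4.30, 4.21, 10.6, 13.6 and 11.2 CPM with DMSO and Ova and 2.54, 2.22, 5.31, 6.62 and 4.44 CPM with iBET and Ova. With IC it had 3.45, 3.22, 8.82, 11.0 and 7.59 CPM with DMSO and 2.33, 1.63, 4.24, 4.91 and 4.17 CPM with iBET. Mice A and B were again the lowest in each group, so that the groups overlapped although every mouse was lower with iBET than with DMSO. It fell with iBET by 1.06 on the log2 scale in Ova (SE 0.413, edgeR adjusted p = 0.0343) and by 1.00 in IC (SE 0.421, adjusted p = 0.0499, just under the threshold). Within mice A and B it was -0.83 and -0.73, while mice C, D and E gave -1.08 and -1.01, and each of these passed (edgeR adjusted p = 0.0155, 0.0305, 0.000103 and 0.000255). With the block the edgeR adjusted p was 1.11e-08 in Ova and 7.05e-08 in IC. Over the alternatives it ranged from 1.11e-08 to 0.124 in Ova, where 4 of 17 lost the call, and from 7.05e-08 to 0.135 in IC, where 7 of 17 lost it. In both, leaving out mouse C (0.0884 and 0.135), D (0.0551 and 0.107) or E (0.124 and 0.112) lost the call in edgeR, as did leaving out the DMSO IC library of mouse E in IC (0.0831). IC against Ova gave -0.37 in DMSO and -0.31 in iBET, below 0 in 5 of 5 mice each, and neither passed (edgeR adjusted p = 0.571 and 0.719). Both passed with the block (-0.37, edgeR adjusted p = 0.00275, and -0.28, adjusted p = 0.0489).

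Markers of several cell types split by mouse, as Alox15 and Ltc4s did. The sum of the 7 eosinophil markers was 52.1 to 59.4 CPM in mice A and B and 111 to 134 CPM in mice C, D and E with DMSO and Ova. With DMSO and IC it was 59.8 to 66.7 and 131 to 157 CPM. With iBET it was 41.6 to 50.9 and 91.8 to 97.5 CPM in Ova, and 49.99 to 58.5 and 96.4 to 115 CPM in IC. The mast cell sum was 17.6 to 23.2 CPM in mice A and B against 39.2 to 49.2 CPM in the other mice with DMSO and Ova, 25.6 to 25.7 against 36.8 to 45.7 with DMSO and IC, 13.3 to 14.5 against 32.1 to 36.8 with iBET and Ova, and 13.6 to 15.7 against 31.6 to 41.4 with iBET and IC. Dendritic cell, neutrophil and erythroid sums were also lower in mice A and B in all 4 groups, and the basophil sum in all but iBET IC, where the mice overlapped. In DMSO Ova the neutrophil sum was 17.5 to 18.2 against 23.6 to 56.7 CPM, the erythroid sum 1.13 to 2.15 against 8.90 to 13.2 CPM and the dendritic cell sum 4553 to 4963 against 5989 to 7194 CPM. Macrophage and platelet sums were higher in mice A and B in all 4 groups, at 2488 to 2635 against 1941 to 2190.3 CPM and 251 to 256 against 161 to 186 CPM in DMSO Ova. With iBET, 2 of the 6 eosinophil markers tested were lower in each stimulus and 0 were higher. Of all genes, 28.9% were lower in Ova and 29.0% in IC, and 27.7% and 27.1% were higher. The granule genes Prg2 and Epx did not pass with iBET in Ova, at 35.4 ± 20.3 and 33.8 ± 17.3 CPM and at 6.42 ± 4.46 and 6.86 ± 4.72 CPM (SD, n = 5 each), whereas the chemokine receptor gene Ccr3 fell from 6.30 ± 2.25 to 1.26 ± 0.147 CPM (-2.33, edgeR adjusted p = 5.7e-07). The part of these markers in the Alox15 and Ltc4s values was not tested.

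Whether iBET acted differently with IC than with Ova was tested as the interaction, the effect of iBET in IC minus its effect in Ova. In edgeR 0 of the 10 genes passed and 0 had an unadjusted p under 0.05, in a comparison where 0.0401% of all genes passed (0.0241% above 0 and 0.0160% below). DESeq2, limma and the replicate block likewise passed 0 of the 10, the last beside 0.818% of all genes (0.401% above 0 and 0.417% below). The value was 0.07 for Ptgs1 (95% interval -0.26 to 0.40), -0.24 for Ptges (-1.09 to 0.62) and -0.25 for Hpgds (-1.12 to 0.62). For Ptgs2 it was -1.10 (-3.01 to 0.80), and 0.27 without the DMSO IC library of mouse E. For Lta4h it was 0.03 (-0.20 to 0.27), for Alox5 0.02 (-0.35 to 0.39) and for Alox15 0.06 (-1.17 to 1.30). Pla2g4a gave -0.17 (-0.80 to 0.45) and Ltc4s 0.21 (-0.66 to 1.07). A difference of a doubling between the stimuli lies within the interval for Ptgs2, Ptges, Hpgds, Ltc4s and Alox15, and outside it for Ptgs1, Alox5, Alox5ap, Lta4h and Pla2g4a. With the mouse as a block the interval was -0.83 to 0.23 for Ptges, -0.12 to 0.59 for Ltc4s and -0.19 to 0.37 for Alox15, none of which holds a doubling, while those of Hpgds (-1.10 to 0.59) and Ptgs2 (-2.10 to 1.22) still did.

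The other genes of the pathway were taken from lists of release and reacylation enzymes, prostanoid synthesis, leukotriene synthesis, inactivation and transport, and receptors, 77 genes of which 48 were tested. With iBET in Ova, 6 of the 48 were higher and 18 lower, beside 27.7% and 28.9% of all genes. In IC 6 were higher and 17 lower, beside 27.1% and 29.0%. With IC in DMSO 5 were higher and 7 lower, beside 9.59% and 10.7% of all genes, and in iBET 2 were higher and 3 lower, beside 5.19% and 6.63%. With the replicate block 9 were higher and 22 lower with iBET in Ova, beside 33.5% and 35.2% of all genes, and 8 and 21 in IC, beside 32.6% and 35.4%. With IC they were 13 and 10 in DMSO, beside 18.3% and 19.8%, and 7 and 4 in iBET, beside 14.2% and 14.7%. The median log2 fold change with iBET was -0.16 in Ova and -0.15 in IC.

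Among the release enzymes, Abhd6, a monoacylglycerol hydrolase, had the largest rise with iBET, from 0.338 ± 0.0846 to 1.37 ± 0.217 CPM in Ova (SD, n = 5 each, log2 fold change 2.02, edgeR adjusted p = 3.65e-07) and by 2.11 in IC. Its levels were low. The better expressed Mgll, the main monoacylglycerol lipase, went the other way, from 257 ± 36.5 to 160.5 ± 16.4 CPM in Ova (-0.68, edgeR adjusted p = 3.03e-05) and from 394 ± 59.9 to 196 ± 23.6 CPM in IC (-1.01). Mgll was also higher with IC in DMSO (0.62, edgeR adjusted p = 0.000697). Dagla, a diacylglycerol lipase, fell with iBET (-1.14 in Ova and -1.20 in IC). The lysosomal phospholipase Pla2g15 fell in Ova (-0.75), and the calcium-independent phospholipase Pla2g6 had -0.71 in IC. Pnpla8, a further calcium-independent phospholipase, rose (0.43 and 0.43), as did the reacylating enzyme Mboat7 in Ova (0.24). Each of these passed in edgeR and moved the same way in 5 of 5 mice. At most 5 rises and 5 falls were named in a comparison, so a gene given for 1 stimulus may have passed under the other too. With the replicate block Pla2g15 passed in IC (-0.69, edgeR adjusted p = 1.04e-08). So did Pla2g6 in Ova (-0.66, adjusted p = 2.32e-05) and Mboat7 in IC (0.23, adjusted p = 0.000738). Without a block, Pla2g6 in Ova also passed with DESeq2 size factors in edgeR (-0.65, adjusted p = 9.91e-05).

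Of the prostanoid synthases that are not members, Tbxas1, the thromboxane synthase, stood at 224 ± 18.4 CPM in DMSO Ova and 118 ± 11.3 in iBET Ova and at 178 ± 12.1 and 107 ± 17.8 CPM in IC (SD, n = 5 each). It fell with iBET by 0.92 and 0.73 on the log2 scale (edgeR adjusted p = 1.27e-07 and 2.55e-06). It also fell with IC in DMSO, by 0.33 (edgeR adjusted p = 0.0205), as Ptgs1 did. Ptgis, the prostacyclin synthase, was at 0.454 ± 0.119 CPM with DMSO and Ova, 0.955 ± 0.275 with DMSO and IC and 0.316 ± 0.111 with iBET and IC. It rose with IC in DMSO (1.07, edgeR adjusted p = 0.00635) and fell with iBET in IC (-1.62, adjusted p = 4.26e-05). With iBET in Ova it did not pass with DESeq2 size factors in edgeR (-0.59, adjusted p = 0.106). Nor did it pass there with the replicate block (-0.58, edgeR adjusted p = 0.0919). Its levels were low, with 4 to 29 reads a library. Of the enzymes that make F-type prostaglandins, Fam213b rose with iBET by 0.67 in Ova and 0.99 in IC, and Cbr1 by 0.61 and 0.81 (edgeR adjusted p at most 0.0147). The better expressed Akr1b3, at 81.0 ± 6.85 CPM in DMSO Ova, did not pass with iBET (0.14 and 0.05, edgeR adjusted p = 0.333 and 0.721) and is named after its values were seen.

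Of the genes of inactivation and transport, Ggt5, which converts leukotriene C4 to D4, fell with iBET in Ova (-1.23, edgeR adjusted p = 1.74e-05) and with IC in DMSO (-0.82, adjusted p = 0.00408), from 3.26 ± 0.755 CPM with DMSO and Ova. With iBET in IC it gave -0.32 and did not pass (edgeR adjusted p = 0.162), and the difference between the stimuli did not pass either (interaction 0.90, edgeR adjusted p = 0.641). Abcc4, an exporter of prostaglandins, fell with IC in DMSO (-0.50, edgeR adjusted p = 7.05e-05) and in iBET (-0.26, adjusted p = 0.0205), and rose with iBET in IC (0.33). Cyp4f16, a cytochrome P450 gene, fell with IC in DMSO (-0.53, edgeR adjusted p = 0.000925). Each rise and fall named here was seen in 5 of 5 mice.

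The receptor genes for these lipids included the largest falls with iBET in the pathway lists. Of the 18 receptor genes 10 were tested. With iBET, 7 were lower in Ova and 6 in IC and 0 were higher, against a background of 28.9% and 29.0% lower. With the replicate block 8 were lower under each stimulus, beside 35.2% of all genes in Ova and 35.4% in IC. Their median log2 fold change was -1.88 in Ova and -1.52 in IC, beside -0.49 and -0.47 for the 10 synthesis genes. Ptger2, a prostaglandin E2 receptor that raises cyclic AMP, fell from 39.2 ± 12.4 to 5.98 ± 1.30 CPM in Ova (SD, n = 5 each, log2 fold change -2.71, edgeR adjusted p = 9.17e-09) and by 2.56 in IC. The related Ptger4 had 75.8 ± 30.5 and 63.7 ± 23.5 CPM in Ova and did not pass (-0.25, edgeR adjusted p = 0.554). It passed with the replicate block (-0.24, edgeR adjusted p = 0.000511). Ptgir, the prostacyclin receptor, had 139.8 ± 19.4 CPM with DMSO and Ova, 32.6 ± 4.97 with iBET and Ova, 236 ± 15.0 with DMSO and IC and 60.9 ± 4.82 with iBET and IC. It fell with iBET (-2.10 and -1.96, edgeR adjusted p = 4.28e-12 and 9.81e-12) and rose with IC in DMSO (0.76, adjusted p = 4.06e-05) and in iBET (0.90, adjusted p = 9.24e-06).

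Of the leukotriene receptors, several fell with iBET. Ltb4r1, the high-affinity receptor for leukotriene B4, fell from 55.4 ± 5.92 to 13.2 ± 2.96 CPM with iBET in Ova (-2.07, edgeR adjusted p = 5.29e-10). It fell with iBET in IC as well (-1.47), and with IC in DMSO (-0.61, edgeR adjusted p = 0.0043). Cysltr1, a receptor for cysteinyl leukotrienes, had 32.3 ± 5.80 and 7.10 ± 0.368 CPM in Ova (-2.18, edgeR adjusted p = 4.26e-12) and a log2 fold change with iBET of -1.92 in IC, and fell with IC in DMSO (-0.85) and in iBET (-0.59). Cysltr2 passed with iBET in Ova (-0.91, edgeR adjusted p = 0.0257) and not in IC (-0.69, adjusted p = 0.0859), where it passed with the block (adjusted p = 0.0239). Fpr2, a receptor of lipoxins among other ligands, fell with iBET (-2.16 and -2.13), as did the nuclear receptor gene Pparg (-1.70 and -1.56), and Pparg was higher with IC in iBET (0.37, edgeR adjusted p = 0.0421), a call lost when scaled by library size alone. Ptger3 fell with IC in DMSO (-1.08, edgeR adjusted p = 0.00145) and in iBET (-0.69, adjusted p = 0.0379) and did not pass with iBET (-0.07 and 0.33). Ptger1, at a mean of 0.473 CPM in DMSO Ova, did not pass in any comparison. Of the 8 receptors not tested, the prostaglandin D2 receptor gene Ptgdr had no read in any library, and none of the 8 had more than 12 reads in a library.

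**Figure D4:**
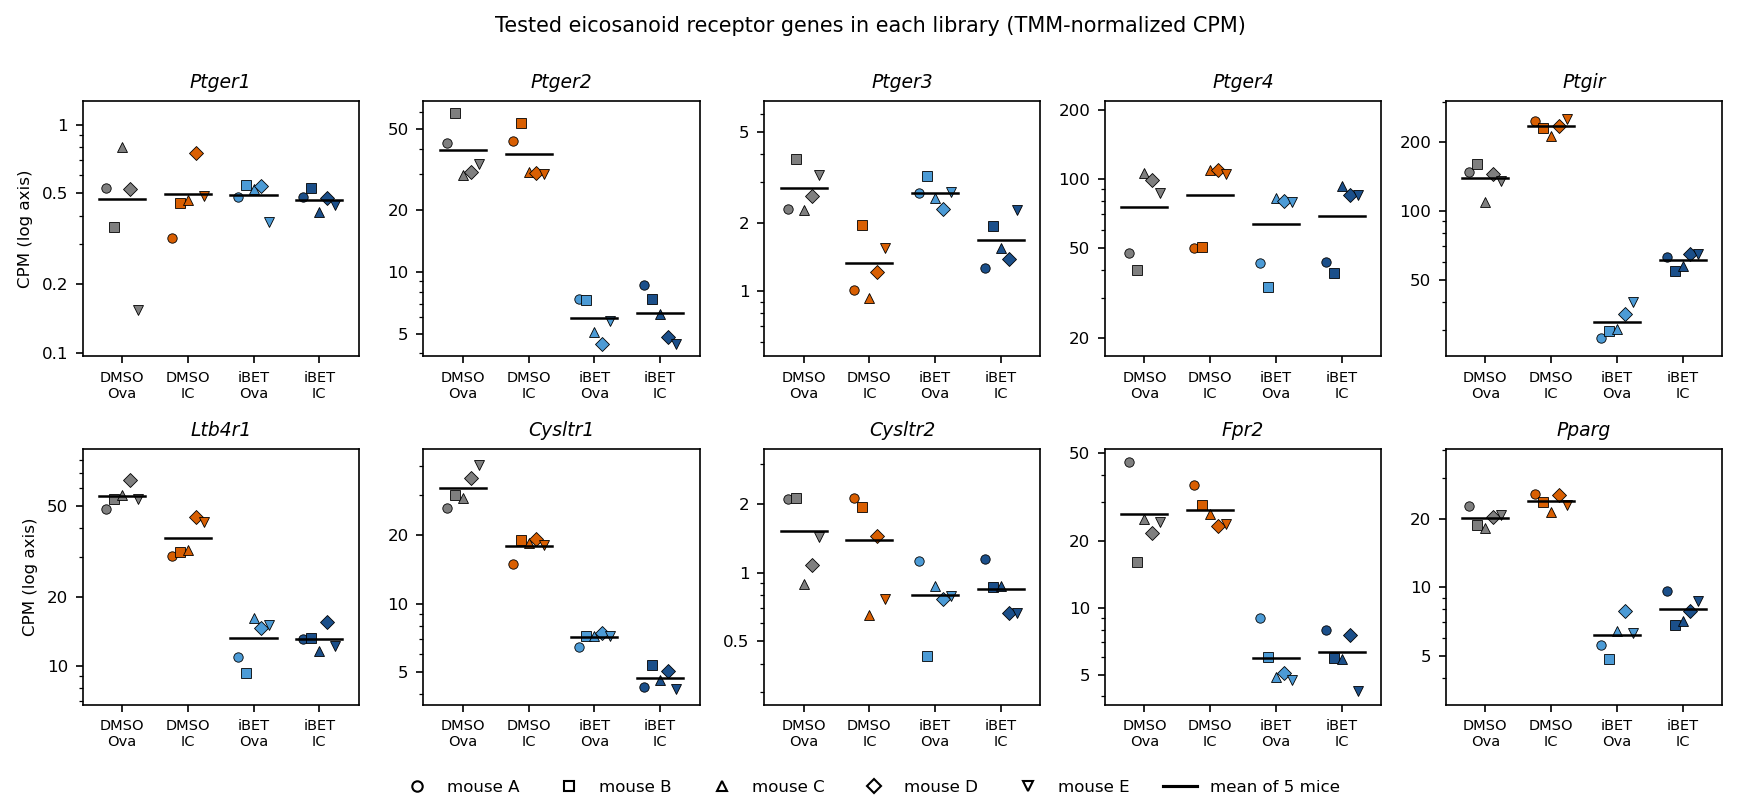
CPM (log axis) of the 10 tested eicosanoid receptor genes in each of the 20 libraries, with the mouse as the symbol and the mean of 5 mice as a bar. Ptger2, Ptgir, Ltb4r1, Cysltr1, Fpr2 and Pparg are lower with iBET under both stimuli, Ptger4 overlaps in all groups, and Ptgir is higher and Cysltr1 lower with IC in both treatments.

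The genes whose log2 CPM, centred within each mouse, followed a member most closely over the 20 libraries are given as a description. Genes with a mean of at least 10 CPM were compared. Ptgs2 was followed by Il1b (r = 0.83), Procr (r = 0.79) and Bre (r = 0.79), of which Il1b encodes an inflammatory cytokine. Ptgs1 was followed by Smarcal1 (r = 0.98), Tspan32 (r = 0.98) and Klf4 (r = 0.98), and Alox5 by Pald1 (r = 0.95), Tspan32 (r = 0.94) and Smarcal1 (r = 0.94), so that Tspan32 and Smarcal1 stood on both lists. Ptges was followed by Cers2 (r = 0.96), Cdk2ap1 (r = 0.96) and Stoml2 (r = 0.96), Hpgds by Ccdc59 (r = 0.94), Napg (r = 0.94) and G2e3 (r = 0.93) and Alox15 by Senp7 (r = 0.99), Sema6d (r = 0.99) and Suv420h1 (r = 0.98). Lta4h was followed by Eif3j1 (r = 0.93), Eif3j2 (r = 0.93) and Bud31 (r = 0.93), of which Eif3j1 and Eif3j2 are near copies of each other whose reads may be shared. Alox5ap was followed by Pkig (r = 0.93), Slc29a1 (r = 0.92) and Aph1a (r = 0.91), Ltc4s by Gucd1 (r = 0.91), Ptdss2 (r = 0.90) and Fcho1 (r = 0.90) and Pla2g4a, with the lowest values, by Mmp2 (r = 0.77), Txndc12 (r = 0.72) and Mak16 (r = 0.71). Among the members, Lta4h ran against Ltc4s (r = -0.89) and Alox15 (r = -0.81). All points share the groups, which iBET separates, so these values carry no test.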

How the data were processed

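RNA of 20 BMDC libraries was measured by bulk RNA-seq with a stranded total RNA kit. Per the study's methods the authors used HISAT2 with the mm10 genome for alignment and featureCounts for counting, and the annotation and strand setting of the counting are not given in the sources used here. The authors deposited a table of raw counts per gene and a second table of signal values, which equalled the counts divided by DESeq2 size factors to within rounding. The deposited counts of 24421 genes were analysed, of which 6187 had no count. Groups and mice came from the labels, and the replicates within a group are separate mice. Each mouse is in all 4 groups, and the main test does not use this pairing. Its p-values rest on the spread between mice within groups, not on the spread of the change within a mouse. The fit with the mouse as a block takes the pairing into account.

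Genes were filtered with filterByExpr, normalized with TMM and tested in edgeR 4.0.16 (R 4.3.3) with the quasi-likelihood test on the group alone, over all 20 libraries, with Benjamini-Hochberg adjustment over 12465 genes. The threshold was an adjusted p of 0.05. Confidence intervals of fold changes are at 95%. log2 CPM for correlations used a prior count of 2. The steps were tested on simulated data for iBET against DMSO in Ova. The simulated libraries carried no effect of the mouse, so that check does not cover the pairing.

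Alternatives were a block for the mouse, DESeq2 1.42.0, DESeq2 size factors, library size alone, no filter, 3 surrogate variables (sva 3.50.0), a fit on the compared libraries, limma 3.58.1 on the deposited log2 values with a pseudocount of 1, each mouse left out, and mice A and B or C, D and E alone. Leaving out the DMSO IC library of mouse E, with or without the block, was chosen after seeing the data. Libraries of the same mouse come from the same animal, and their deviations from the group means correlated at 0.524 on average and at least 0.307 over 30 pairs. No pair of libraries of a group was one library deposited again, since the smallest chi-square per degree of freedom was 13.2.

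The 10 genes and the lists of pathway and marker genes were chosen with earlier results of these data known. All members and all tested receptors are named, and from the other lists, in each comparison, up to 5 rises and 5 falls among genes that passed and moved the same way in 5 of 5 mice. Positions and exon lengths are from GENCODE M21 (GRCm38), and promoters from RefSeq.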

Additional observations from a re-analysis of the deposited data

Results flagged for a closer look

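Among the 10 genes in the 4 groups, which made 40 sets of 5 libraries, 1 set had a library far from the rest by Dixon's test (0.803, against a critical value of 0.71). This was Ptgs2 in the DMSO IC group, at 44.8 CPM in mouse E, where the other mice had 1.67 to 10.2 CPM. Chance places such a mark on about 1 set in 20. In the same group mouse E had 22.1 Ptgs2 reads for each 100 Ptgs1 reads, and the other mice 1.03 to 4.78.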

How the results depend on the processing

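Of 840 values of the 10 genes under the alternatives, 716 kept both direction and call, 50 gained a call, 43 lost one and 31 turned in direction. The cause was not tested. Depth limited Hpgds most, at 6 to 64 reads a library.

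With the replicate block for the mouse, 8 members passed with iBET in Ova, 6 with IC in DMSO and 3 with IC in iBET, and over all genes 8560 passed with iBET in Ova, 8473 in IC, 4755 with IC in DMSO (2531 without it), 3601 with IC in iBET (1474) and 102 in the interaction (5). It changed no call of the 10 genes other than those given beside the results. With the block and without the DMSO IC library of mouse E, 8 members passed with iBET in Ova, 5 members and 4286 genes with IC in DMSO, 3 and 3500 with IC in iBET, 94 genes passed in the interaction, and the Ptgs2 interaction turned to 0.40.

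With surrogate variables, 8 members and 8722 genes passed with iBET in Ova, 6 and 4087 with IC in DMSO, 1 and 3118 with IC in iBET and 0 and 49 in the interaction, and the direction turned for Pla2g4a with iBET in IC (0.061) and IC in iBET (0.0058), Alox5ap with IC in DMSO (-0.018), Lta4h with IC in iBET (-0.0025) and the Alox15 interaction (-0.028). Scaling by library size alone moved the median of all genes with IC to -0.13 in DMSO and -0.12 in iBET, passed 1 member and 2343 genes with IC in iBET (313 higher and 2030 lower, against 647 and 827), and turned Alox5ap (-0.074) and Pla2g4a (-0.042) with IC in DMSO and Lta4h with IC in iBET (-0.081). A fit on only the libraries compared passed 1 member with IC in iBET, and DESeq2 passed 24 genes in the interaction.

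In mice A and B only, 0 members and 502 genes passed with IC in DMSO, 295 genes with IC in iBET and 0 in the interaction. There Alox5ap turned with iBET in IC (0.0045) and with IC in DMSO (-0.10), as did Lta4h (0.056) and Pla2g4a (-0.014) with IC in DMSO, Ltc4s with IC in iBET (-0.0079) and the interactions of Ptges (0.42), Hpgds (0.71) and Lta4h (-0.030). In mice C, D and E only, 13 genes passed in the interaction, and Ltc4s with IC in DMSO (0.045), Ptges with IC in iBET (-0.25) and the interactions of Alox5 (-0.034) and Alox5ap (-0.11) turned.

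With 1 mouse left out, 3 to 5 members passed with iBET in Ova and 1 to 3 with IC in DMSO, and over all genes 1209 to 2476 passed with IC in DMSO, 630 to 1179 with IC in iBET and 0 to 2 in the interaction. Without the DMSO IC library of mouse E alone, 1450 and 3 passed in the latter pair. The values that turned ranged from -0.0081 to 0.10 (Alox5ap), -0.037 to 0.023 (Lta4h) and -0.00072 to 0.18 (Pla2g4a) with IC in DMSO. In the interaction they ranged from -0.052 to 0.17 (Alox15), -0.0097 to 0.081 (Alox5), -0.019 to 0.20 (Alox5ap), -0.67 to 0.23 (Hpgds) and -1.62 to 0.19 (Ptgs2, 0.27 without that library alone).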
